A study of Mus musculus and Homo sapiens with 18 samples.

Results

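Peaks of catalytically inactive Cas9 (dCas9) in the mouse genome are described here for the single guide RNA (sgRNA) Nanog-sg3 at its smallest transfected amounts, 0.2 ug and 0.02 ug, with 1 library per dose. The members are the deposited peaks of those 2 samples, 166 at 0.2 ug and 122 at 0.02 ug, or 288 of the 53617 peaks in the 16 lists of the series. Both libraries came from V6.5 embryonic stem (ES) cells (strain C57BL/6-129) that carry a stably integrated dCas9 gene and were transfected with the guide with a lipid reagent. Chromatin was immunoprecipitated (IP) with an anti-HA antibody and sequenced. Another 4 Nanog-sg3 lists serve as reference: the same stable cells with 2 ug of guide (1 library) and with 20 ug (2 libraries, called replicate 1 and replicate 2), and wild-type V6.5 cells given 20 ug of guide together with 20 ug of dCas9 (the transient library). Lists of other guides in the stable cells (Phc1-sg1 and Phc1-sg2 at 20 ug, Nanog-sg2 at 10, 20 and 40 ug) and the input of the transient cells are used for overlap. They also enter the chromosome spans and the median score over all mouse lists, and Nanog-sg2 serves to place the position at Nanog. The labels name neither the promoter that drives dCas9 nor whether the stable line is 1 clone, and they do not say whether doses were handled side by side.

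The mutated enzyme is still led to DNA by its guide but leaves the strands intact, so an IP peak marks DNA with which the protein was associated. Binding needs a short protospacer adjacent motif (PAM) next to the site, and pairing starts in the guide's PAM-proximal seed, so that sites with partial matches to a guide can be bound without being cut by the active enzyme. In the stable cells dCas9 is made from the integrated gene, and only the guide is added. Nanog, for which the guide is named, codes for a homeodomain protein that helps maintain pluripotency. The guide's sequence was not used here, and no mm9 genome or annotation was at hand, so peaks are given by mm9 position without genes or sequence.

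A 10-fold larger amount of guide gave 1.36 times as many listed peaks. The 0.2 ug list held 44 peaks more than the 0.02 ug list, and the 95% exact interval of the ratio, which covers counting error only, ran from 1.07 to 1.73. Together the 0.2 ug peaks covered 99.8 kb and the 0.02 ug peaks 79.4 kb, a ratio of 1.26. Peaks thus numbered 6.3 per 100 Mb at 0.2 ug and 4.63 per 100 Mb at 0.02 ug, against 102.4 per 100 Mb at 2 ug. These densities use, for each chromosome, the span up to the last peak of any of the 12 mouse lists, 2634.3 Mb in all. With 1 library per dose there is no spread between replicates, so no difference between the doses was tested, and read depth is unknown, since no read counts are listed.

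The authors' score of a peak, which the sources used here do not define, was distributed much alike in both lists except at the top. The median was 89.12 at 0.2 ug (exact 95% interval of the median over peaks 82.08 to 95.82) and 84.70 at 0.02 ug (79.93 to 95.27). The quartiles were 64.82 and 123.14 at 0.2 ug, and 63.19 and 113.03 at 0.02 ug. Most peaks of both lists lay low on the scale, with 59 of 166 (35.5%) and 41 of 122 (33.6%) scoring 100 or more, compared with 65.5% at 2 ug. The upper tail differed: 17 peaks scored 200 or more at 0.2 ug, up to 505.30, whereas 2 did so at 0.02 ug, up to 245.16. Near the lower edge, 27 peaks at 0.2 ug (16.3%) and 24 at 0.02 ug (19.7%) scored under 60, the lowest being 50.25 and 50.49.

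Peaks were slightly narrower at 0.2 ug. The median width was 532.5 bp (interval 501 to 556) at 0.2 ug and 602 bp (539 to 706) at 0.02 ug, and these intervals overlap. Quartiles were 401.8 and 749.2 bp at 0.2 ug against 423 and 818.8 bp at 0.02 ug. Peaks of 1000 bp or more made up 15 of 166 (9.04%) and 16 of 122 (13.1%), and peaks under 300 bp made up 9.64% and 9.84%. Both lists resembled the 2 ug list in width (median 592 bp) more than the 20 ug lists (859 bp in replicate 1, 946 bp in replicate 2) or the transient list (365 bp). The widest peak at 0.2 ug spanned 1775 bp on chromosome 2 (32250420 to 32252194) with a score of only 52.84, and the widest at 0.02 ug spanned 1589 bp on chromosome 11 (100939926 to 100941514) with a score of 76.76. The narrowest were 166 bp on chromosome 9 (69327248 to 69327413, score 77.32) at 0.2 ug and 185 bp on chromosome 5 (90484782 to 90484966, score 50.58) at 0.02 ug. Width and score hardly moved together within either list (Spearman rho 0.04 over 166 peaks and 0.12 over 122 peaks of 1 library each, given as a description).

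**Figure D1:**
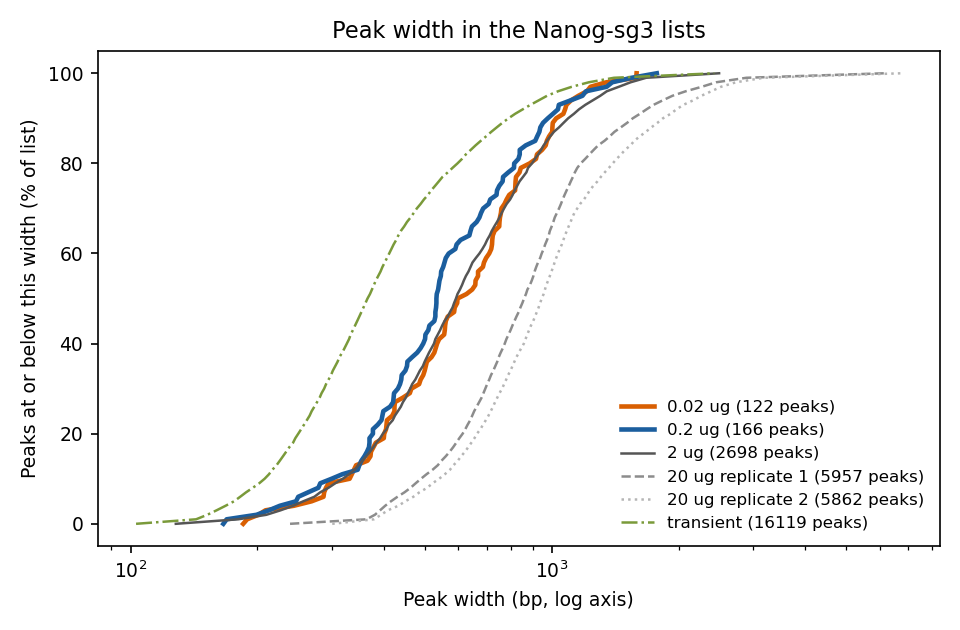
Cumulative share of peaks (%) against peak width (bp, log axis) for the 6 Nanog-sg3 lists, drawn from each list's percentiles. The curves of the 0.2 ug and 0.02 ug lists (thick lines, medians 532.5 and 602 bp) run beside that of the 2 ug list, to the left of both 20 ug lists and, except at the very top where the transient list reaches 2430 bp, to the right of the transient list.

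Both low-dose lists were scattered over the whole genome. Each had peaks on chromosomes 1 to 19 and X, 20 in all, and none on Y. Within a list no 2 neighbouring peaks lay closer than 14.7 kb at 0.2 ug or 14.2 kb at 0.02 ug, the median gap was 6.1 Mb and 7.85 Mb, and 2 gaps in each list were within 100 kb. Density ranged from 1.21 peaks per 100 Mb on chromosome X to 13.2 on chromosome 2 at 0.2 ug, and from 1.26 on chromosome 3 to 11.4 on chromosome 19 at 0.02 ug. Over the 20 chromosomes the densities of both lists had a Spearman rho of 0.44 with each other. Against the 2 ug list, rho was 0.54 for 0.2 ug and 0.57 for 0.02 ug. Against 20 ug replicate 2 it was 0.45 for 0.2 ug, 0.64 for 0.02 ug and 0.92 for 2 ug. Counts per chromosome were small (2 to 24 and 2 to 11), so each low-dose density carries a large counting error.

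By difference in share over all peaks, chromosome 2 stood farthest apart between the lists. It held 24 of the 166 peaks at 0.2 ug (14.5%, exact Clopper-Pearson 95% interval 9.49 to 20.7%) but 8 of 122 at 0.02 ug (6.56%, 2.87 to 12.5%), and 6.93% of the 2 ug peaks. The 24 peaks were spread from 24316195 to 179854053 with at least 178.8 kb between neighbours, so they did not form 1 cluster. Their scores were low (median 64.47, compared with 92.19 over the remaining 142 peaks), and 11 of the 24 (45.8%) were found at 2 ug, compared with 64.8% of those on other chromosomes. The 8 peaks at 0.02 ug scored 50.73 to 79.70. Among peaks scoring 100 or more, chromosome 2 therefore held 4 of 59 at 0.2 ug (6.78%, 1.88 to 16.5%) and 0 of 41 at 0.02 ug (0 to 8.6%), and chromosome 1 held the most at 0.2 ug, with 10 (16.9%). This score limit for both doses was chosen after seeing the data. Running numbers in the names of these peaks also changed: 2 of the 24 were numbered 10158 and 10216, and the other 22 from 1003 to 1117. Such changes were not particular to chromosome 2, since the numbers fell back 9 times along the genome in this list. The part of this numbering in the result was not tested.

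In the other direction, chromosome 5 held 3.01% of the peaks at 0.2 ug and 7.38% at 0.02 ug, chromosome 17 held 3.61% and 7.38%, and chromosome 19 held 2.41% and 5.74%. Among peaks scoring 100 or more, chromosome 17 and not chromosome 2 stood farthest apart. It held 1 of 59 at 0.2 ug (1.69%, 0.0429 to 9.09%) and 6 of 41 at 0.02 ug (14.6%, 5.57 to 29.2%). Over all peaks, the largest holding at 0.02 ug was on chromosome 7, with 11 peaks (9.02%, 4.59 to 15.6%), where 0.2 ug had 12 (7.23%). The share was larger at 0.2 ug on 11 chromosomes and smaller on 9. The 2 intervals overlapped on each of the 20 chromosomes, and the differences themselves were not tested.

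**Figure D2:**
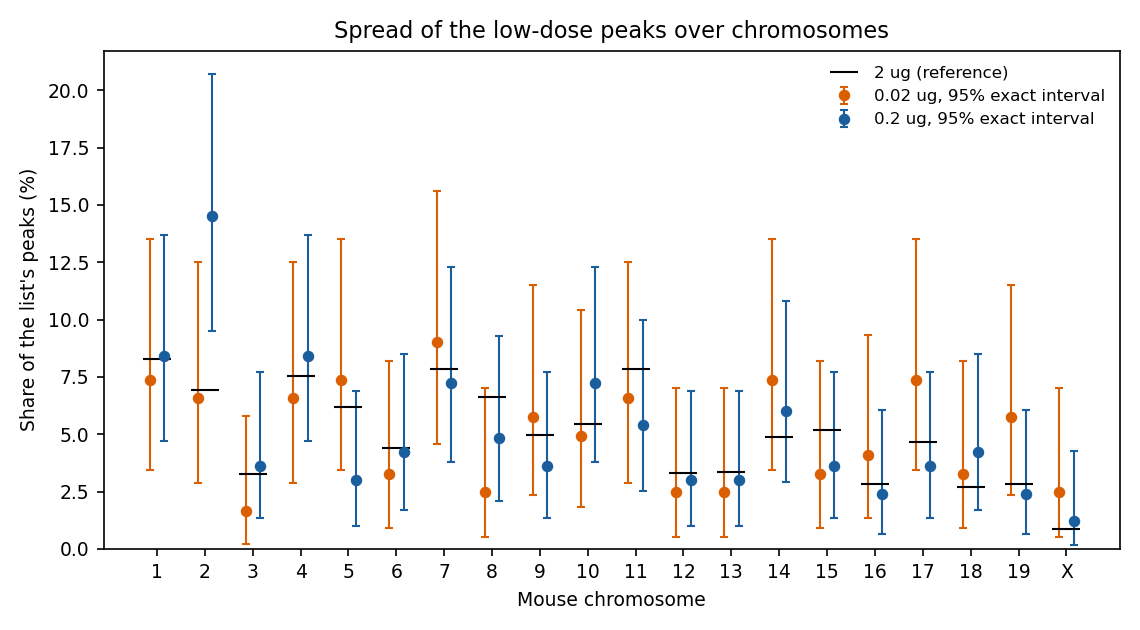
Share of each list's peaks (%) on each mouse chromosome for 0.02 ug (122 peaks) and 0.2 ug (166 peaks), points with exact 95% intervals, and for 2 ug (black bars, no interval drawn). Chromosome 2 at 0.2 ug stands highest at 14.5%, and the 2 intervals overlap on all 20 chromosomes.

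Few positions were listed at both low doses, after a filter whose rule is unknown. At 1 bp or more in common, 9 peaks were shared, which is 7.38% of the list at 0.02 ug (3.43 to 13.5%) and 5.42% of that at 0.2 ug (2.51 to 10%). The remaining 113 peaks at 0.02 ug and 157 at 0.2 ug had no counterpart, so of 279 distinct positions 3.23% were shared. Near misses were rare: the count was still 9 when peaks up to 10 kb apart were accepted, and 13 of the 0.02 ug peaks had a 0.2 ug peak within 100 kb. The median distance from a 0.02 ug peak to the nearest 0.2 ug peak was 3.06 Mb.

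The 9 shared positions lay on 9 different chromosomes, and where a position was shared the peaks matched closely. They had between 295 and 816 bp in common, at least 60.5% of the 0.02 ug peak and at least 62.9% of the 0.2 ug peak, and their centres were 11 to 188.5 bp apart (median 49). The strongest was on chromosome 6 (52167442 to 52167975), which scored 444.32 at 0.2 ug (rank 2 of 166) and 196.70 at 0.02 ug (rank 4 of 122). Its scores in the reference lists were 1265.05 at 2 ug, 1040.50 and 1183.03 at 20 ug and 826.99 in the transient library. Next came chromosome 1 (182498690 to 182499703), with ranks 24 and 11 and scores of 176.14 at 0.2 ug and 164.48 at 0.02 ug. There the reference scores were 376.16 at 2 ug, 296.74 and 521.95 at 20 ug and 450.07 in the transient library. Both positions were therefore among the higher peaks at either low dose and higher still in each reference list.

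For 3 of the 9 the score was lower at the larger dose. Chromosome 14 (70476550 to 70476946) scored 108.90 at 0.2 ug and 137.77 at 0.02 ug. Chromosome 7 (148405352 to 148406084) scored 92.35 and 125.92. Chromosome 4 (149328500 to 149329740) scored 92.06 and 101.65. These differences (0.2 ug minus 0.02 ug) were -28.87, -33.57 and -9.59, against 247.62 on chromosome 6.

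The other 4 shared positions scored under 100 at both doses, and each was somewhat higher at 0.2 ug. On chromosome 9 (70526279 to 70527044) the score was 86.03 at 0.2 ug and 58.08 at 0.02 ug, where it ranked 105 of 122. On chromosome 10 (127848181 to 127849155) it was 73.60 and 59.03. On chromosome 18 (38455999 to 38456917) it was 94.71 and 75.13, and on chromosome 16 (38902129 to 38902914) 82.00 and 70.42. Shared positions were thus not drawn from the top of either list alone: their ranks ran from 2 to 109 at 0.2 ug and from 4 to 105 at 0.02 ug. Over all 9 the score was higher at 0.2 ug at 6, with a median difference of 11.66, and with depth unknown a score need not mean the same in each list.

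Most of these positions recurred at higher doses with larger scores. Of the 9, 8 were found at 2 ug, and at 7 of these the 2 ug score exceeded both low-dose scores, as at chromosome 9 (446.97) and chromosome 7 (333.36). The exception was chromosome 4, with 95.90 at 2 ug and no peak in either 20 ug library or the transient one. Chromosome 16 was the position missing at 2 ug, though it was listed in 20 ug replicate 2 (110.81) and in the transient library (229.96). In all 4 reference lists 6 positions were present, namely those on chromosomes 1, 6, 7, 9, 14 and 18. A higher score at 2 ug was not particular to shared positions. It was seen for 97 of all 103 peaks of the 0.2 ug list found at 2 ug, and for 21 of 29 of the 0.02 ug list.

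**Figure D3:**
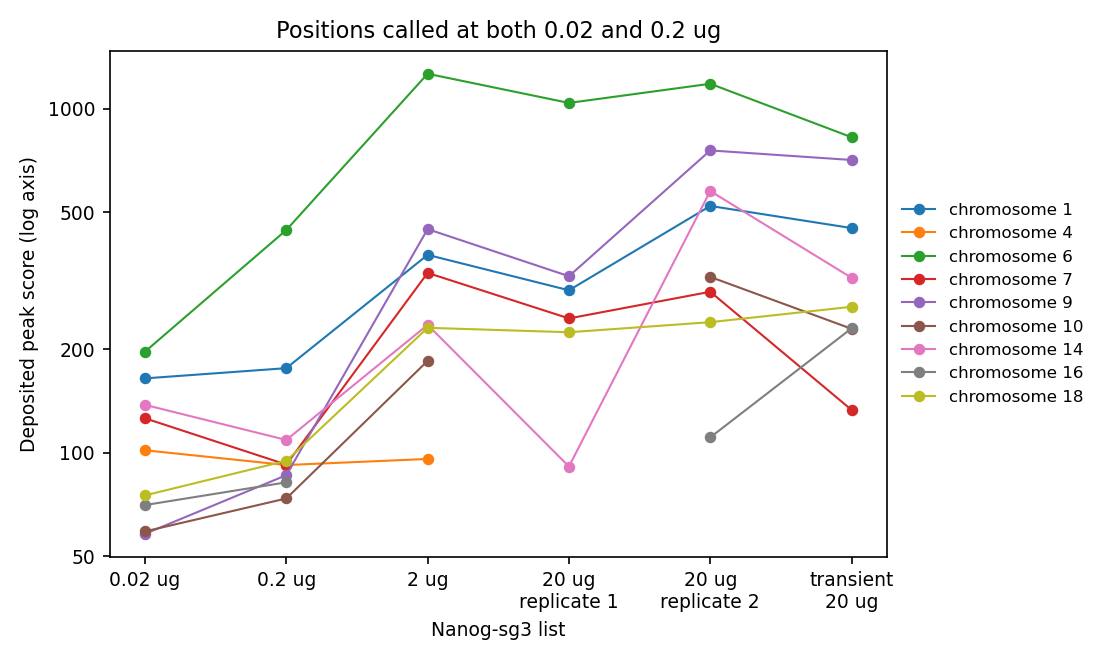
Deposited peak score (log axis) at the 9 positions called at both 0.02 and 0.2 ug, 1 line per position named by its chromosome, across the 6 Nanog-sg3 lists. A line breaks where a list had no peak; scores at 2 ug were above both lower doses at 7 of the 8 positions present there, and chromosome 6 was highest in every list.

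The low-dose lists differed in how far they recurred in the reference lists. Of the 0.2 ug peaks, 61.4% were in 20 ug replicate 2 (102 of 166, 53.6 to 68.9%), 56% in replicate 1 (93, 48.1 to 63.7%) and 70.5% in the transient list (117, 62.9 to 77.3%), close to the 62% at 2 ug (103). Of the 122 at 0.02 ug, 23.8% recurred at 2 ug (29 peaks, 16.5 to 32.3%), 15.6% in 20 ug replicate 2 (19, 9.64 to 23.2%), 9.02% in replicate 1 (11, 4.59 to 15.6%) and 26.2% in the transient list (32, 18.7 to 35%). For each of the 4 reference lists the intervals of both doses lay apart. These intervals treat peaks as independent draws from 1 library, so they compare 2 lists and not 2 doses. The reference peaks covered little of the span, 0.0678% at 2 ug, 0.218% and 0.242% at 20 ug and 0.271% in the transient list. These values are not chance levels for the shares. An overlap of 1 bp also depends on the width of the low-dose peak, and peaks need not be placed evenly.

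At 0.2 ug most peaks were found in all of the reference lists or in none, and at 0.02 ug most were found in none. At 0.2 ug, 84 peaks (50.6%) were in all 4 reference lists and 43 (25.9%, 19.4 to 33.3%) in none, with 14, 10 and 15 in 1, 2 and 3 of them. At 0.02 ug, 9 peaks (7.38%) were in all 4 and 80 (65.6%, 56.4 to 73.9%) in none. No peak of either list was shared with the other low dose without also being in a reference list, so those 43 and 80 peaks appeared in no other Nanog-sg3 list at all. Of the 80, 34 lay within 10 kb of a peak in another Nanog-sg3 list and 7 within 500 bp, and of the 43, 13 and 0 did. By another measure, 65 of all 122 peaks at 0.02 ug and 131 of all 166 at 0.2 ug lay within 10 kb of a transient peak. Of these, 32 and 117 overlapped one. That measure uses 1 list and includes overlaps, so it is no like-for-like baseline for the 34 and the 13. The part of peak density in these counts was not tested.

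**Figure D4:**
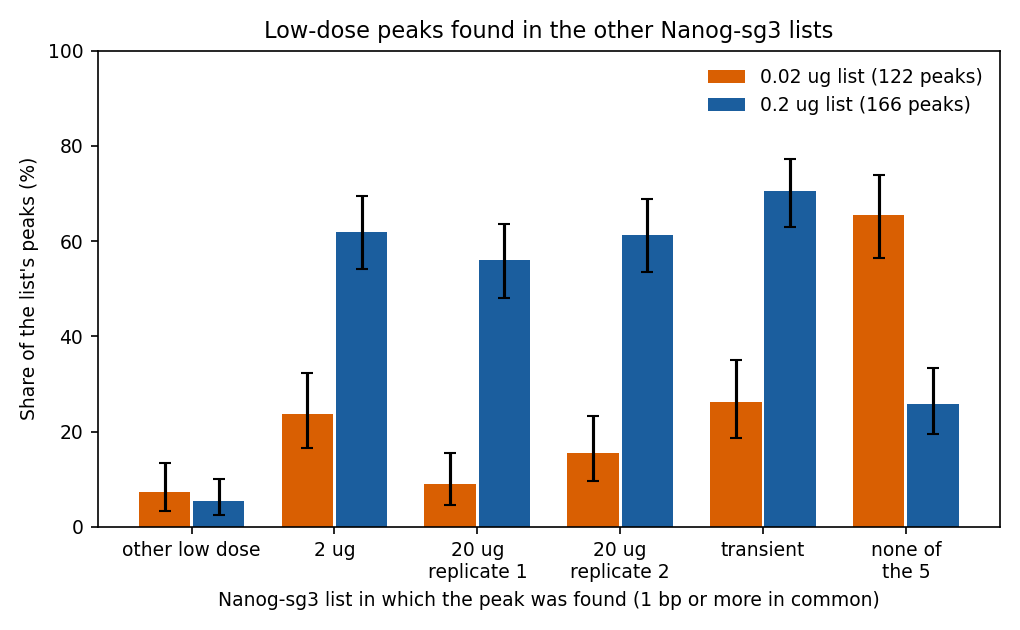
Share (%) of the 122 peaks at 0.02 ug and the 166 peaks at 0.2 ug with 1 bp or more in common with a peak of each other Nanog-sg3 list, and with none of the 5, with exact 95% intervals as error bars. The 0.2 ug bars stand at 56 to 70.5% in the 4 reference lists, against 9.02 to 26.2% for 0.02 ug, while both are under 10% for the other low dose.

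The lists were not nested by dose. Since the filter rule and read depth are unknown, a peak missing from a list is no measure of absent binding. Of the 42 peaks at 0.02 ug that recurred in a reference list, 33 (78.6%) were missing from the 0.2 ug list in between. Of the 29 found at 2 ug, 8 were also at 0.2 ug (27.6%, 12.7 to 47.2%) and 21 were not. At 2 ug the 21 had a median score of 111.48 (56.73 to 324.96) and the 8 had 284.36 (95.90 to 1265.05), ranges that overlap. Peaks of the 0.2 ug list fell at strong positions of the 2 ug list, with a median rank of 179 of 2698 and 73 of 103 in its top 25%. Those of the 0.02 ug list had a median rank of 1221, with 10 of 29 in the top 25%. In the other reference lists the gap was smaller: in 20 ug replicate 1 the top 25% held 8 of 11 peaks of the 0.02 ug list (72.7%) and 78.5% of those of the 0.2 ug list. The corresponding values were 52.6% and 74.5% in replicate 2, and 56.2% and 76.9% in the transient list. Read from the other side, 8 of the 10 highest peaks at 2 ug were called at 0.2 ug and 1 at 0.02 ug, and of the 100 highest 34 and 2 were. Over that whole list of 2698 peaks, 103 peaks at 0.2 ug and 29 at 0.02 ug were found. For the 10 highest of 20 ug replicate 1, replicate 2 and the transient list, counts were 5 and 0, 7 and 1, and 3 and 0. For their 100 highest, counts were 32 and 1, 33 and 2, and 17 and 2. Counts this small at 0.02 ug do not set the top peaks apart from the whole list.

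Peaks that recurred scored higher at 0.2 ug, whereas at 0.02 ug the direction depended on the reference list. With the 0.2 ug peaks ordered by score and split into 4 near-equal groups, 37 of the 41 peaks in the highest group were found at 2 ug (90.2%, 76.9 to 97.3%), then 54.8%, 63.4% and, in the lowest group of 42, 40.5% (25.6 to 56.7%). In the 0.02 ug list the same groups gave 26.7% (12.3 to 45.9%), 16.1%, 33.3% and 19.4% (7.45 to 37.5%). Median scores were 70.91 for the 43 peaks at 0.2 ug in no reference list and 94.61 for the other 123. At 0.02 ug they were 85.77 for the 80 and 83.23 for the other 42. The 11 peaks at 0.02 ug found in 20 ug replicate 1 went the other way, with a median of 125.92 against 84.42 for the rest, while the 19 found in replicate 2 had 76.76 against 86.55. Width, in turn, differed at 0.02 ug. At 0.02 ug the peaks found in a reference list had a median width of 776.5 bp against 532 bp for those found in none, whereas at 0.2 ug the medians were 534 and 528 bp. That difference at 0.02 ug was also not the same for every list: peaks found in 20 ug replicate 1 had 558 bp against 627 bp for the rest, and the 9 in all 4 reference lists had 588 bp against 607 bp. A wider peak has more chance of overlapping another, and its part in these shares was not tested.

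**Figure D5:**
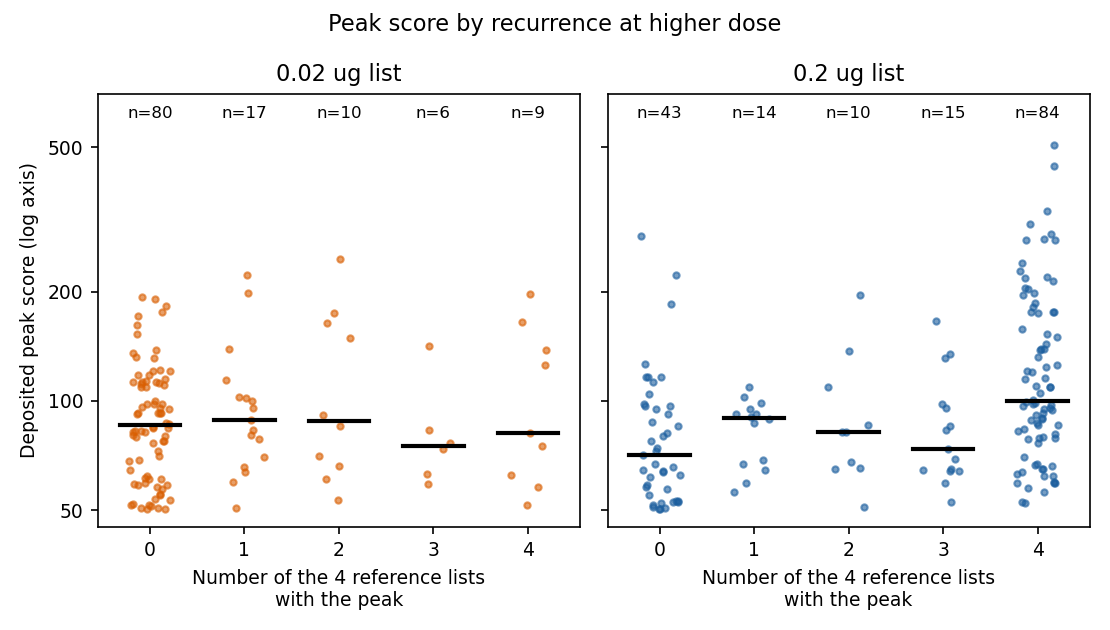
Deposited score of every peak (log axis) by the number of the 4 reference lists in which it was found, for 0.02 ug on the left and 0.2 ug on the right; black bars are medians and n counts peaks. At 0.2 ug the medians for 0 to 4 lists are 70.91, 89.77, 82.04, 73.60 and 99.86, highest for the 84 peaks in all 4 but with no steady rise, and at 0.02 ug they stay between 75.34 and 88.39.

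The highest peaks of the lists recurred to different extents. All 5 highest peaks at 0.2 ug were in all 4 reference lists. The highest, on chromosome 6 (53744399 to 53744930, 505.30), ranked 3 at 2 ug with 1039.43, and the third, on chromosome 1 (162836125 to 162837518, 333.83), scored 335.86 at 2 ug and 729.64 and 696.51 at 20 ug. The remaining pair, on chromosome 18 (65183394 to 65183756, 306.58) and chromosome 3 (90417304 to 90417798, 287.99), scored 622.05 and 825.75 at 2 ug. The second was the shared position on chromosome 6. Of these 5, only that one had a peak at 0.02 ug.

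Among the 5 highest at 0.02 ug, that same position was the only one found at 0.2 ug and the only one in all 4 reference lists. The highest, on chromosome 17 (86883653 to 86884137), scored 245.16 at 0.02 ug, 163.12 at 2 ug (rank 889 of 2698) and 120.04 in 20 ug replicate 1 (rank 2628 of 5957). The second, also on chromosome 17 (47604963 to 47605967, 221.98), was otherwise listed only in the transient library, near the bottom with 51.73. The third, on chromosome 14 (37781394 to 37782476, 197.61), recurred at 2 ug with 269.23, and the last, on chromosome 9 (66005794 to 66006216, 193.26), in no other Nanog-sg3 list.

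The position at Nanog had no peak at either low dose. It was taken as the chromosome 6 peak common to Nanog-sg2, a second guide for Nanog, and 20 ug replicate 1 of Nanog-sg3 (122655719 to 122658343). The nearest low-dose peaks were 13.2 Mb away at 0.2 ug (135857505 to 135858041, score 79.71) and 14.3 Mb away at 0.02 ug (136929010 to 136929340, 76.66). The 2 lists that define this position scored 1472.86 (20 ug replicate 1 of Nanog-sg3) and 1200.13 (Nanog-sg2 at 20 ug) there. Their peaks are therefore no separate evidence for where it lies. The other 10 of the 12 mouse lists had no peak there. Among them were 20 ug replicate 2, the 2 ug and transient lists of Nanog-sg3 and Nanog-sg2 at 10 and 40 ug. The sources used here do not state the rule by which peaks were filtered, so a missing peak is no measure of binding at this position.

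Of the 122 and the 166 low-dose peaks, 0 overlapped any of the 3686 peaks of the Phc1-sg1, Phc1-sg2, Nanog-sg2 and transient input lists (Phc1 codes for a Polycomb group protein). For Phc1-sg1, with 2948 peaks the longest of these, a count of 0 leaves an upper 95% limit of 2.98% at 0.02 ug and 2.2% at 0.2 ug. Within 1000 bp of a Phc1-sg1 peak lay 2 peaks at 0.02 ug and 1 at 0.2 ug. In the reference lists 0.111% of the peaks at 2 ug, 0.101% and 0.239% at 20 ug and 0.0931% in the transient library overlapped Phc1-sg1, shares at which lists of 122 and 166 peaks would hold under 1 such peak, so the count of 0 does not set the low doses apart. A filter that removed positions called with several guides would also lower these counts, and its part was not tested. The mouse no-sgRNA library is not among the 12 mouse lists and was not analysed here.

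The peak names carry numbers whose meaning is unknown and which cannot be read as a count of the peaks called before filtering. Along the genome the numbers fell back 7 times at 0.02 ug and 9 times at 0.2 ug, and they leapt from 1495 to 10060 between neighbouring listed peaks of chromosome 5 and from 1574 to 10015 on chromosome 7. In 120 of 122 and 164 of 166 names the number begins with 1. The same held for 2679 of 2698 names at 2 ug. It held for fewer names at 20 ug, 4032 of 5957 in replicate 1 and 4710 of 5862 in replicate 2. In the transient list it held for 10857 of 16119. The part of this numbering in the overlap and recurrence of the lists was not tested. The highest numbers, 13697 and 12010, therefore do not show how many peaks were removed at either dose. Both lists have a sixth column that holds 10 on every line, as do the 2 ug list and 20 ug replicate 2, whereas replicate 1 lacks it and the transient list holds 5.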

How the data were processed

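The deposited data were peak lists for 16 of the 18 samples, 1 list each, with chromosome, start, end, a name beginning with MACS (a peak caller) and a score. The submitters' processing notes name Bowtie as aligner and mm9 as the mouse build. The sources used here give no versions, control library, score definition or filter rule. The score is the authors' own, with no column name, and served to rank, describe and filter peaks within a list; scores of the same position in several lists are set side by side as a description only, since they may not share a scale. The first base was taken as 0 in the deposited starts, and 1 was added to them.

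The labels gave each sample's guide, dose, cells and antibody. Peaks with 1 bp or more in common counted as shared. Shares carry exact Clopper-Pearson 95% intervals and medians exact order-statistic intervals, covering counting error only. Depth per sample is unknown. With 1 library per dose no test was made. Overlap code was tested on simulated data. Named were all shared positions, the 5 highest-scoring, the widest and the narrowest peak of each list, and the Nanog position; the peaks nearest to Nanog were added after their values were seen. Members, lists and this rule were chosen with earlier results of these data known. Python 3.11.15, NumPy 2.4.6, SciPy 1.17.1 and matplotlib 3.10.9 were used.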

Additional observations from a re-analysis of the deposited data

How the results depend on the processing

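Of 105 recomputed values, 81 stayed within their counting interval (or within 1.5 times, for numbers of peaks) and 24 did not. Of the 81, 17 came from merging peaks within 500 bp of each other. That setting could not change the low-dose lists themselves, since neither held neighbouring peaks so close. Those 17 values therefore say little about stability. The ratio of peak numbers, which alone has a direction, did not reverse. That ratio, both median widths, the overlap between the low doses and the shares of 0.02 ug peaks at 2 ug and in the transient list stayed inside those bounds under each alternative run. With a score of at least 100, and of at least 102.91 (the median over all mouse lists), numbers fell to 59 and 57 at 0.2 ug and 41 and 39 at 0.02 ug. The shares of 0.2 ug peaks found at 2 ug, in either 20 ug library and in the transient list became 74.6%, 74.6% and 78% and then 75.4%, 75.4% and 78.9%, and the share on chromosome 2 became 6.78% and 5.26%. With the 100 highest-scoring peaks of each list these 4 were 71%, 73%, 80% and 9%, and 17% of 0.2 ug peaks were in no other list. Chromosome 2 lost its first place at 0.2 ug to chromosome 1 under these 3 settings (10 of 59, 10 of 57 and 11 of 100 peaks). At 0.02 ug, chromosome 7 lost its first place under both score limits, with 4 of 41 and 4 of 39 peaks. Chromosomes 1 and 17 then held 6 each. Among the 100 highest, chromosome 7 kept first place with 11. With centres within 200 bp the shares of 0.2 ug peaks found at 2 ug, in either 20 ug library and in the transient list were 53.6%, 54.8% and 58.4%. With 50% of both peaks in common, 31.9% of 0.2 ug and 9.84% of 0.02 ug peaks (65.1% and 16.4% at 1 bp) were in either 20 ug library, whose peaks are wider. Leaving out a 20 ug replicate gave 56 to 61.4% and 9.02 to 15.6%, the lower value without replicate 2. Causes of these shifts were not tested. The alternatives for the share of peaks in no other list were chosen after seeing the data. No paired analysis was possible because each low dose held 1 library and no test was made. Unknown read depth limits every comparison of numbers and scores.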
